A study of Mus musculus with 2 samples.

Results

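A set of 10 microRNA genes that lie inside the transcription units of larger genes was followed in the mouse cerebral cortex, namely Mir383, Mir488, Mir153, Mir592, Mir346, Mir874, Mir598, Mir190a, Mir342 and Mir326. They were defined by symbol and by the host gene named for each, by a rule that uses no counts but was drawn up with earlier results of these data known, and make up 10 of the 2202 microRNA genes in the tables. The tissue was left cerebral cortex, taken at 36 days of age from male mice of the strain B6CASTF1/J, the F1 cross between C57BL/6J and CAST animals, and the labels name no treatment. There was 1 group of 2 libraries, replicate 2 from the animal numbered 4 and replicate 1 from the animal numbered 3. Both carry 1 donor identifier in the labels, beside different animal numbers, and were treated as separate animals. With 1 library against 1, a p-value measures only how far these libraries differ beyond counting error. There are no conditions to compare. Reads of the parental alleles are not separated in the counts.

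An intronic microRNA is cut as a hairpin from the intron of its host transcript, or from a transcript of its own that starts inside the host. The hairpin is trimmed to a short mature strand, which Argonaute proteins carry to messenger RNAs that match its seed, and those messages are then repressed. In brain, many such microRNAs sit in genes of synapses, neuronal adhesion and signalling, and their presence in cortex is often read beside that of the host. Host messages were not measured here, since the libraries held RNA below 30 bases, so the description of the hosts as neuronal could not be checked against these data.

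The annotation placed all 10 microRNA genes inside the expected host and on its strand (GENCODE M21, mm10). In 9 of the 10, every host transcript that spans the microRNA has it in an intron. Mir592 (chromosome 6, 27936655 to 27936750, minus strand) is the exception. It lies in an intron of 4 Grm8 transcripts and in exon 6 of 1 further transcript, a non-coding one whose last exon of 3292 bases covers it. No other microRNA gene lies within any of the 10 hosts, and the nearest same-strand microRNA gene, Mir345 beside Mir342, is 178353 bases away. Each member is thus the one annotated microRNA gene of its host.

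The hosts range from 71306 bases for Arrb1, which encodes beta-arrestin 1, a protein that ends signalling by G-protein-coupled receptors, to 1139211 bases for Sgcz, which encodes a sarcoglycan of the dystrophin-linked membrane complex. Mir383 (chromosome 8, 38252133 to 38252202, minus strand) lies in the first intron of Sgcz, which is 707667 bases long. Mir326 (chromosome 7, 99552269 to 99552363, plus strand) lies in the first intron of Arrb1. Mir598 (chromosome 14, 63727189 to 63727267, plus strand) lies in the first intron of Xkr6, a gene of the XK-related membrane protein family. Mir346 (chromosome 14, 34894609 to 34894706, plus strand) is in intron 2 of Grid1, the gene of the glutamate receptor subunit delta-1. Its place, 9.76% of the host length from the 5′ end, is the one closest to a host start in relative terms. Mir153 (chromosome 12, 117250817 to 117250885, plus strand) lies 96.7% along Ptprn2, which encodes a phosphatase-like protein of dense-core vesicles. Mir190a (chromosome 9, 67236660 to 67236726, minus strand) lies 94.3% along Tln2, the gene of talin 2, which links integrins to actin. Mir488 (chromosome 1, 158505625 to 158505733, plus strand) sits in intron 5 of Astn1, the gene of an adhesion protein of migrating neurons, 155 bases after the upstream exon. Mir342 (chromosome 12, 108658620 to 108658718, plus strand) and Mir874 (chromosome 13, 58023125 to 58023200, minus strand) lie in Evl, an actin regulator of the Ena/VASP family, and in Klhl3, an adaptor of a cullin ubiquitin ligase.

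The introns also differ widely in size. The longest are those around Mir383, Mir592 (218685 bases), Mir598 (190922 bases) and Mir346 (123044 bases). The shortest are intron 5 of Astn1 around Mir488, with 4376 bases, and intron 19 of 22 in Ptprn2 around Mir153, with 4902 bases. Mir874 lies in an intron of 10926 bases, 7212 bases after one exon of Klhl3 and 3638 bases before the next. Mir190a lies in an intron of 11222 bases that all 6 spanning Tln2 transcripts share, and Mir342 in one of 20189 bases shared by 5 Evl transcripts. Antisense genes overlap Mir488 (Gm37679) and Mir153 (Gm5441) on the other strand.

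**Figure D1:**
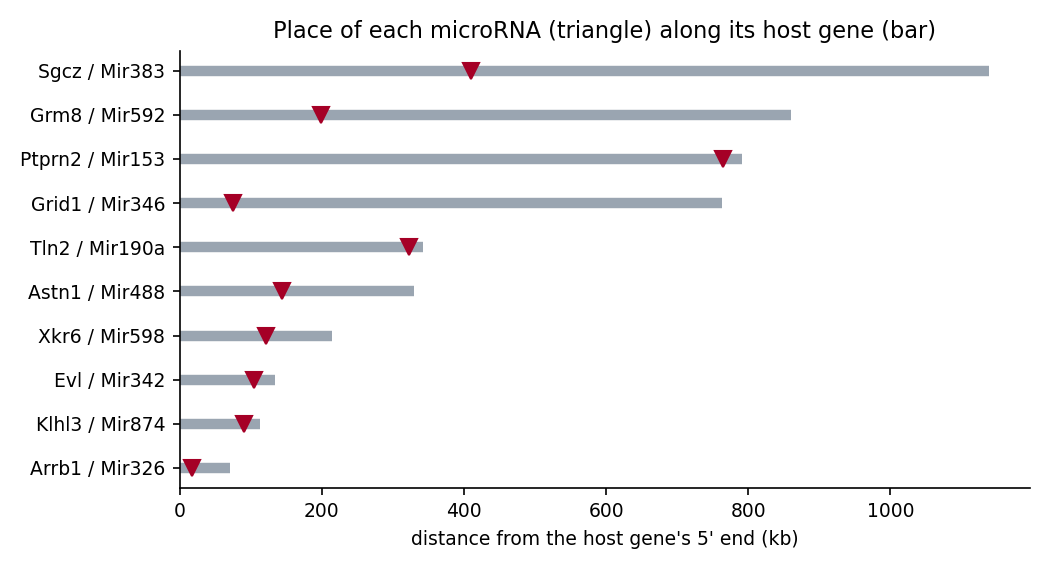
Length of each host gene (grey bar, kb on the horizontal axis, measured from the host's 5′ end) and the place of its microRNA (triangle), with the longest host at the top. Mir346 lies at 74.5 kb of 763.3 kb in Grid1, while Mir153 lies at 765.1 kb of 791.1 kb in Ptprn2.

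Of the 10 genes, 7 have mature sequences in the RefSeq microRNA table of build GRCm38.p6 and 1, Mir874, has its hairpin only. All 8 hairpins have the coordinates of the GENCODE genes. Mir383 and Mir598 are named only. The 14 mature arms of the 7 genes carry 14 different seeds, and 11 of these seeds occur on no other arm among the 1738 of the table. The sequences below are those of Mir346, Mir592 and Mir153, which together with Mir874 differed most between the libraries, and of Mir342, the member with the highest level among those with a mature sequence. They are written 5′ to 3′, and capitals mark the seed, bases 2 to 8. The hairpin of Mir874 has no capitals, since no arm was given.
miR-346-5p (chr14:34894624-34894646, plus): uGUCUGCCcgagugccugccucu
miR-346-3p (chr14:34894662-34894683, plus): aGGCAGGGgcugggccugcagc
Mir874 hairpin (chr13:58023125-58023200, minus): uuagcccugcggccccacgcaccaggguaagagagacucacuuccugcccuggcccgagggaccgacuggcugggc
miR-592-5p (chr6:27936711-27936733, minus): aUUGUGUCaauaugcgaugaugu
miR-592-3p (chr6:27936672-27936693, minus): uCAUCACGuggugacgcaacau
miR-153-5p (chr12:117250821-117250843, plus): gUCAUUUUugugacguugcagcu
miR-153-3p (chr12:117250860-117250881, plus): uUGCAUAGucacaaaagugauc
miR-342-5p (chr12:108658638-108658659, plus): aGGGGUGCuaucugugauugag
miR-342-3p (chr12:108658680-108658702, plus): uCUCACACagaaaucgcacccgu
G and C make up 65.2% of miR-346-5p and 77.3% of miR-346-3p, against 34.8% of miR-592-5p and 50% of miR-592-3p. The deposited counts join both arms of a hairpin, so the level of an arm cannot be given.

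A pair of members share a seed with another measured microRNA, and Mir346 shares one with a gene at 0 counts. Seeds decide which messages a microRNA can pair with, so these are shown side by side.
miR-326-3p (chr7:99552328-99552348, plus): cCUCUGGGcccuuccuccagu
miR-330-5p (chr7:19181486-19181507, plus): uCUCUGGGccugugucuuaggc
miR-190a-5p (chr9:67236700-67236721, minus): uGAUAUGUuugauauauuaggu
miR-190b-5p (chr3:90070030-90070051, plus): uGAUAUGUuugauauuggguug
Levels are given as CPM, the reads of a gene scaled to an equal total of microRNA reads in each library. Mir330, in an intron of Eml2 and in an exon of some of its transcripts, had 11630 and 10643 CPM in replicates 2 and 1, against 804 and 651 CPM for Mir326. Mir190b had 5.74 and 6.32 CPM, against 29.4 and 33.5 CPM for Mir190a. In both libraries the Mir330 gene thus stood above Mir326, and Mir190a above Mir190b. These are levels of whole genes, with both arms joined, and not of the arms that carry the shared seeds. Mir7001, whose 5p arm has the seed of miR-346-3p, had 0 counts in both libraries, so that its level may reach 0.748 CPM in replicate 2 or 0.702 CPM in replicate 1 (3 counts).

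The tables held 4010274 and 4273791 counts on the strand of the microRNA genes in replicates 2 and 1, which is 34.8% and 36.0% of all reads. CPM values are these counts brought to that common total. A read stands for a whole small RNA whatever the length of its hairpin, so no division by length was made. Ligation of adapters favours some small RNA ends over others, as is known of such libraries, and orders between genes are orders of reads. Reads that fit several places, 39.9% and 42.8% of all reads, stayed outside the gene counts. None of the 10 members shares a stretch of 22 bases with another microRNA gene, against 75 of the 300 detected genes, and only Mir190a shares 18 bases with one, Mir190b. No count fell on the opposite strand of any member.

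All 10 members reached 10 CPM in each library, the limit used for detection, against 13.6% of all 2202 microRNA genes. Since the members were picked with earlier results known, nothing is read from that difference. Of the 821 other microRNA genes in same-strand introns of protein-coding genes 121 were detected (14.7%), at a median of 195 CPM over these 121, where the members' median was 696 CPM. Together the members made up 15193 CPM of replicate 2 and 15740 CPM of replicate 1, or 1.55% ± 0.0387 of the counts (SD, n = 2). The sums were close in the libraries, while their make-up differed. Mir383, Mir342 and Mir598 took 83.1% of it in replicate 2 and 74.7% in replicate 1. The mean levels of the highest and the lowest member lay 195-fold apart, and the order of the members' CPM had a Spearman rho of 0.927 between the libraries over the 10 genes, a description of genes within the same libraries.

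Mir383 of the Sgcz intron stood highest, with 6804 and 5484 CPM in replicates 2 and 1 and a mean of 6144 ± 934 CPM (SD, n = 2). By mean level it was gene 37 of all, between Mir143 with 7484 and 4892 CPM and Mir99b with 6688 and 4110 CPM. Mir342 of Evl had 3293 and 3782 CPM in replicates 2 and 1. Its neighbours in level were Mir335, with 4671 and 3176 CPM, and Mir320, with 4363 and 2565 CPM. Mir598 of Xkr6 had 2525 and 2490 CPM, between Mir219a-2 with 2152 and 2956 CPM and Mir671 with 2908 and 1996 CPM. These 3 members kept their order in both libraries, and no library of one reached the level of the next. They were also the only members above 1000 CPM in both.

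The middle of the order was not settled by 2 libraries. Mir874 of Klhl3 had 713 and 1887 CPM in replicates 2 and 1, Mir326 of Arrb1 804 and 651 CPM, and Mir346 of Grid1 381 and 950 CPM. Mir326 stood above both in replicate 2 and below both in replicate 1. Mir488 of Astn1 had 387 and 329 CPM, and so exceeded Mir346 in replicate 2 only. Mean levels were 1300 ± 830 CPM for Mir874, 727 ± 108 CPM for Mir326, 665 ± 402 CPM for Mir346 and 358 ± 41.2 CPM for Mir488 (SD, n = 2). The ranges of neighbours in this order overlapped at each of the 3 steps.

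The lower end held Mir153, Mir592 and Mir190a. Mir153, known to repress alpha-synuclein, had 197 and 113 CPM in replicates 2 and 1, below every value of Mir488. Mir592, in the gene of the presynaptic glutamate receptor mGluR8, had 60.1 CPM in replicate 2 (exact 95% Poisson interval 52.7 to 68.2) and 21.3 CPM in replicate 1 (17.1 to 26.1). Mir190a had 29.4 CPM (24.4 to 35.2) in replicate 2 and 33.5 CPM (28.2 to 39.4) in replicate 1. Which of Mir592 and Mir190a stood higher thus differed between the libraries. The intervals cover counting error only, and the smallest count behind these values was 91, for Mir592 in replicate 1.

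**Figure D2:**
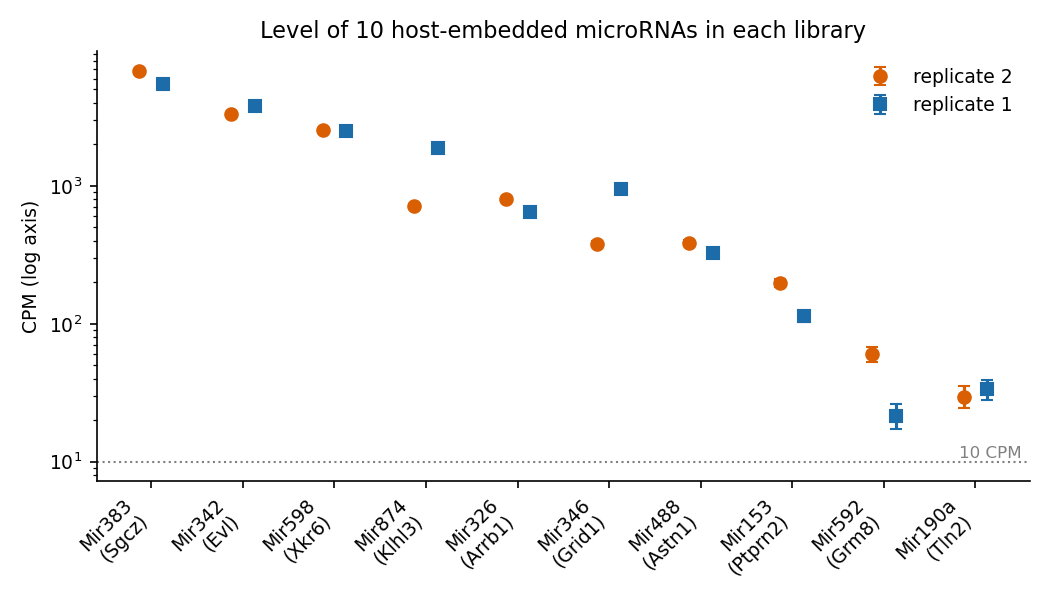
CPM (log axis) of the 10 members, ordered by mean, with a circle for replicate 2 and a square for replicate 1; bars are exact 95% Poisson intervals and the dotted line is 10 CPM. The libraries lie close together for Mir598 (2525 and 2490 CPM) and far apart for Mir874 (713 and 1887 CPM) and Mir592 (60.1 and 21.3 CPM).

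**Figure D3:**
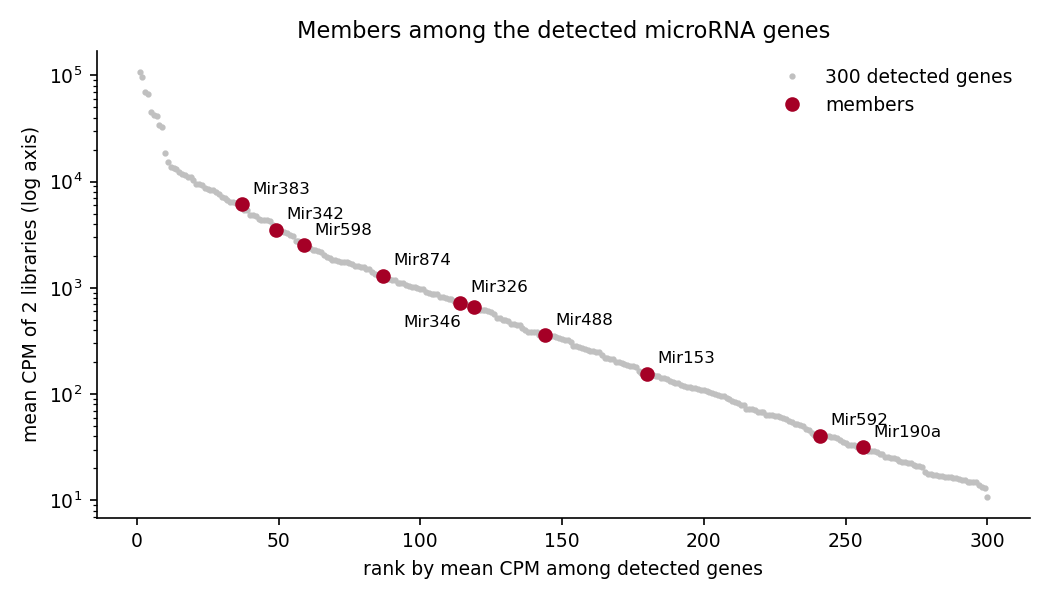
Mean CPM of the 300 detected microRNA genes (log axis) against their rank, with the members marked. Mir383 lies at rank 37, Mir488 at 144 and Mir190a at 256.

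Whether a member differed between the libraries by more than counting error was asked with an exact two-sided binomial test on TMM-scaled library sizes, adjusted (Benjamini-Hochberg) over the 516 genes with 10 or more counts. At an adjusted p under 0.05, 6 members were higher and 3 were lower in replicate 2. Of all genes tested 27.5% were higher and 30.4% lower, 57.9% in either direction, so most genes at this depth differed. Every member had 100 or more counts together, where calls were more frequent than over all genes tested. Of the 149 such genes with 50% or less G and C in the hairpin, 60 were higher and 60 lower. Of the 109 above 50% and up to 60%, 43 were higher and 45 lower, and of the 51 above 60%, 16 and 23. The members' median log2 ratio of replicate 2 over replicate 1 was 0.17, against -0.04 over all genes tested. In 3 members the absolute log2 ratio was 1 or more beside an adjusted p under 0.05, against 18.4% of all genes tested. These were Mir592, Mir874 and Mir346. The median absolute log2 ratio was 0.46 over the 309 genes with 100 or more counts together, and 4 members exceeded it.

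The glutamate receptor hosts, Grm8 and Grid1, held members that moved in opposite directions. Mir592 was read 241 times in replicate 2 and 91 times in replicate 1, and its log2 ratio was 1.54 (1.18 to 1.90, the exact 95% interval) with an adjusted p of 2.11e-19 in the binomial test. Mir346 was read 1528 times in replicate 2 and 4060 times in replicate 1, with a log2 ratio of -1.28 (-1.36 to -1.19). It was thus lower in replicate 2 while Mir592 was higher, and their intervals lie on opposite sides of 0.

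Mir874 had the largest shift among the members toward replicate 1, with 2859 counts in replicate 2 and 8063 in replicate 1. Its log2 ratio was -1.36 (-1.43 to -1.30), or 0.389 times the level of replicate 1, and its adjusted p was smaller than the computation could hold. Among the 516 genes tested, its absolute log2 ratio ranked 75, that of Mir592 68 and that of Mir346 90. Mir153, with 789 counts in replicate 2 and 485 in replicate 1, had a log2 ratio of 0.83 (0.67 to 1.00; adjusted p of 1.15e-23 in the binomial test). It was the other member beyond the median absolute ratio.

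Smaller shifts were called in members with many counts. Mir383 had 27287 counts in replicate 2 and 23437 in replicate 1, a log2 ratio of 0.35 (0.33 to 0.38). Mir326, known in mouse T cells for its part in Th17 differentiation, had a log2 ratio of 0.34 (0.27 to 0.42) and Mir488 of 0.28 (0.17 to 0.38). Mir342 was lower in replicate 2, at -0.16 (-0.19 to -0.13). All 4 ratios are smaller in size than the median absolute ratio of 0.46. Over all genes tested, the coefficient of variation between the libraries beyond counting error was 43.7% (edgeR common dispersion, 1 group).

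Mir598 had the ratio closest to 0, with 10126 counts in replicate 2 and 10641 in replicate 1 and a log2 ratio of 0.06 (0.02 to 0.10; adjusted p of 0.00533 in the binomial test). That call was lost under 4 of the alternatives. With total counts the log2 ratio was 0.02 and the adjusted p 0.404, and with scaling and test over genes of 100 or more counts the adjusted p was 0.0528; with no minimum count it was 0.0934, and in unstranded counts 0.210. Mir190a had 118 counts in replicate 2 and 143 in replicate 1. Its log2 ratio of -0.15 (-0.51 to 0.22) had an adjusted p of 0.517 in the binomial test, and the interval leaves room for a change of up to 0.51 on the log2 scale toward replicate 1.

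**Figure D4:**
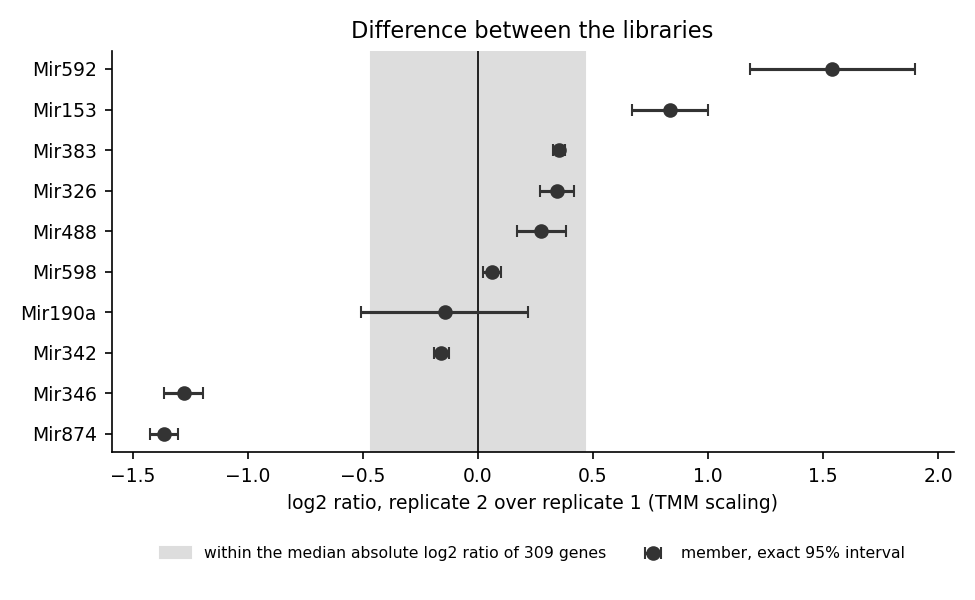
Log2 ratio of replicate 2 over replicate 1 for the 10 members (horizontal axis, TMM scaling), with exact 95% intervals of counting error; the grey band is the median absolute log2 ratio, 0.46, of 309 genes. Mir592 (1.54) and Mir153 (0.83) lie to its right, and Mir346 (-1.28) and Mir874 (-1.36) to its left.

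The base composition of the hairpins moved with these ratios among the members, but only with Mir874 and Mir346 included. Mir874 and Mir346 have the highest GC content, at 68.4% and 65.3%, and were the members with the lowest log2 ratios. Mir592 and Mir153, with the highest log2 ratios, have 43.8% and 42.0%. Mir190a has 28.4%, the lowest, and its ratio was near 0. Over the 10 members Pearson's r between GC content and log2 ratio was -0.60 and Spearman's rho -0.55, and without Mir874 and Mir346 they were -0.02 and -0.12 over 8. Over the 309 genes with 100 or more counts they were -0.05 and -0.07, a description across genes of the same libraries. The 51 of these genes above 60% GC had a median log2 ratio of -0.17. A straight line in GC content, fitted over the 309 genes, was then taken off. The log2 ratios were -1.21 for Mir874, -1.14 for Mir346 and 1.56 for Mir592, and no member's call changed. The line was nearly flat, with fitted log2 ratios from -0.15 for Mir874 to 0.06 for Mir190a. It was thus too small to remove the calls of the members with the largest ratios. That correction was chosen after the values were seen, and the part of base composition in the ratios was not tested otherwise.

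**Figure D5:**
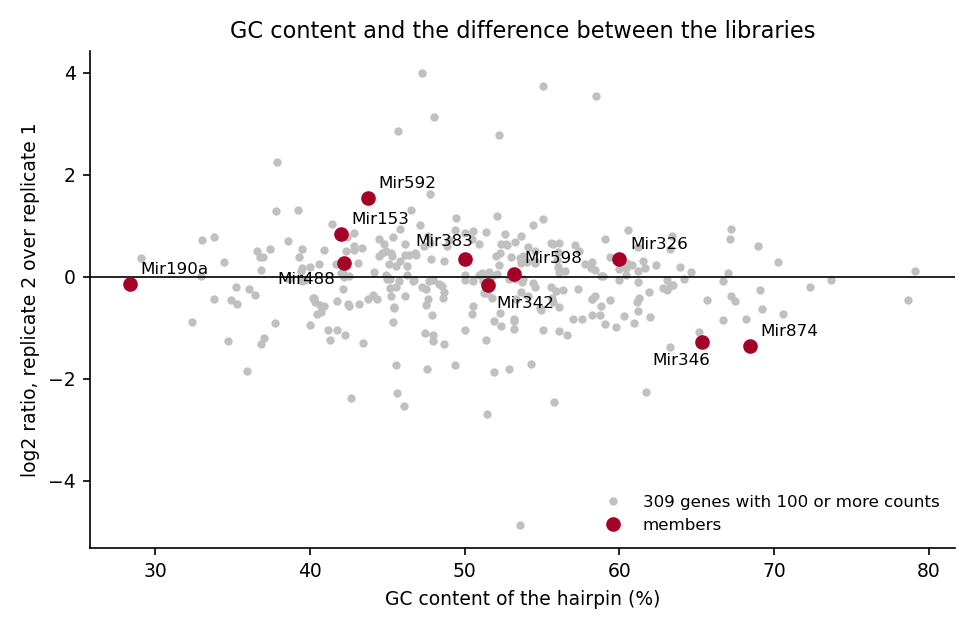
GC content of the hairpin (%, horizontal axis) against the log2 ratio of replicate 2 over replicate 1 for 309 genes with 100 or more counts (grey) and the 10 members (red). Mir874 (68.4%, -1.36) and Mir346 (65.3%, -1.28) lie low at the right, where most other genes lie nearer to 0.

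Markers of cell types also differed between the libraries. The neuronal list reached 35647 CPM for replicate 2 and 61943 CPM for replicate 1, with 4 of its 5 tested genes lower in replicate 2. Most of that sum was Mir132, with 30022 and 54937 CPM. The log2 ratios were -0.83 for Mir132, -0.64 for Mir212 and -0.22 for Mir137, the last smaller in size than the median absolute ratio of 0.46. The remaining gene called lower was Mir124a-3, with 4 and 20 counts. Mir124a-1, the tested gene without a call, went the other way, with 15 counts in replicate 2 and 10 in replicate 1. Mir124a-2 was at 0 counts and the other Mir124a genes had at most 20, but each of the 3 has 22 bases in common with a further microRNA gene, and reads that fit several places are not counted, so these are not levels of Mir124a. The oligodendrocyte list summed to 3543 and 5098 CPM, with 2 of 3 tested genes lower. The red-cell list reached 771 CPM for replicate 2 and 56.9 CPM for replicate 1, with both genes higher, and the epithelial list 386 and 138 CPM, with 4 of 5 higher and 1 lower. The endothelial gene Mir126a had 10799 and 11394 CPM. The mural list summed to 7691 and 5178 CPM, but its genes went opposite ways. Mir143 was higher in replicate 2 (log2 ratio 0.65) and Mir145a lower (-0.42). The microglia and leukocyte list summed to 2065 and 2228 CPM, with 2 of 5 genes higher and 2 lower. The part of these differences in the members' ratios was not tested. In bulk tissue, fewer cells of a type and less of the marker RNA in each cell cannot be told apart.

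Other microRNAs in introns of genes with a role in brain were set beside the members. All 20 on that list lie in the host expected, and 16 were detected. All 20 together gave 125992 and 180733 CPM in replicates 2 and 1, of which Mir139 of Pde2a, a cyclic nucleotide phosphodiesterase, gave 84864 and 130099 CPM. By the mean of both libraries, Mir151 of the kinase gene Ptk2, with 13299 and 9564 CPM, Mir330 and Mir128-1 came next. That order did not hold in replicate 1 alone, where Mir128-1, Mir149 and Mir330 stood above Mir151. Mir149 had 5867 and 10688 CPM. Mir128-1 of R3hdm1 had 6096 and 12978 CPM, and shares a stretch of 22 bases with another microRNA gene. At an adjusted p under 0.05 in the binomial test, 4 of the 18 tested were higher and 8 lower in replicate 2, with a median log2 ratio of -0.22, against 6 and 3 of the 10 members and their median of 0.17. The list was chosen by host gene and with earlier results known, and no test of the difference between the lists was made.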

How the data were processed

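MicroRNA sequencing of 2 libraries of 1 group was analysed. The authors deposited a table of raw read counts (whole numbers) over microRNA genes for each library, mapped to mm10 with GENCODE M21 annotation per the text files beside the tables. Which aligner, counter and trimming were used is not given in the sources used here, nor whether reads carried molecular identifiers. Without column names in the tables, the layout was read as unstranded, own-strand and opposite-strand counts, and own-strand counts were used. Reads in entries that name no gene (multi-mapped 39.9% and 42.8%, unmapped 20.9% and 16.7%, outside genes 4.39% and 4.56% in replicates 2 and 1) stayed out. All 2202 identifiers matched the annotation, from which hosts, introns and neighbours were taken. Sequences are from RefSeq, GRCm38.p6; GC content and shared stretches were computed on GENCODE transcripts.

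CPM was computed over own-strand counts. Since 1 group leaves no contrast, edgeR's quasi-likelihood test could not be fitted; an exact binomial test compared the libraries, with TMM factors and common dispersion from edgeR 4.0.16 in R 4.3.3 on genes with 10 or more counts. Factors from DESeq2 1.42.0, total counts, other minimum counts, unstranded counts and other denominators were alternatives. A chi-square of 336636 on 515 degrees of freedom between the libraries' counts shows that they are not 1 library deposited as 2. Scripts (Python 3.11.15, SciPy 1.17.1) were tested on simulated data. Intervals and the limit of 3 counts cover counting error only. By rule, all members, microRNAs sharing a member's seed, the 4 highest of the brain list and marker lists by sums are named. The rule also covers the nearest genes in level of the 3 highest members. Outside it, Mir149, the Htr2c, Slit2, Slit3 and Chrm2 microRNAs of the brain list and several single marker genes are named. Likeness across samples was not computed from 2 libraries. Members and lists were chosen with earlier results of these data known.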

Additional observations from a re-analysis of the deposited data

How the results depend on the processing

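The number of members lower in replicate 2 was 3 under the other scalings, minimum counts, unstranded counts and the GC correction, and 2 when the ratio also had to reach 1 in size on the log2 scale. The number higher was 6, or 5 where Mir598 lost its call (total counts, no minimum, a minimum of 100 counts and unstranded counts), and 1 (Mir592) with that size required. No member's ratio changed sign. The unstranded counts of all 10 members equal their own-strand counts, so that setting changed only the library scaling and the other genes in the adjustment. The GC correction could move a ratio only a little, since its fitted values among the members ran from -0.15 to 0.06. At a limit of 100 CPM, 8 members were detected. All 10 were detected at 1 CPM and in each library alone, which the main rule of 10 CPM in both libraries makes certain. Unstranded counts gave 10 as well, but are no separate check, since the members' counts are the same there and their CPM only rose. The summed level of 15467 CPM was 15193 to 15740 CPM in the single libraries, 17348 CPM without Mir139 in the total, 16682.5 CPM in unstranded counts and 5471 counts when scaled over all reads of a library in place of the microRNA counts, by the construction of these denominators. The coefficient of variation was 41.2% with 100 or more counts required, 43.7% with DESeq2 size factors and 42.2% in unstranded counts. The host overlap stood at 10 with protein-coding genes only, which was certain, since each member has 1 same-strand gene around it and all 10 of these are protein-coding. No paired analysis was possible because the libraries form 1 group. Depth limits Mir190a and Mir592, whose intervals are the widest.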

Other observations

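The serotonin receptor gene Htr2c, unlike the 10 hosts above, holds several microRNA genes in its introns. Of the 5 on the list, 4 were detected: Mir1298 had 82.8 and 83.1 CPM in replicates 2 and 1, Mir1264 20.7 and 25.0 CPM, Mir448 16.0 and 10.5 CPM and Mir764 15.0 and 15.0 CPM. Mir1912 had 0 and 5 counts. Only Mir448 was called between the libraries, on 64 counts in replicate 2 and 45 in replicate 1. Its log2 ratio was 0.64 (0.07 to 1.22), with an adjusted p of 0.0472 in the binomial test, just under the limit of 0.05. No alternative setting is reported for that call. Of the other pairs in related hosts, Mir218-2 of Slit3 had 103 and 121 CPM and Mir218-1 of Slit2 16.7 and 25.7 CPM; both share stretches of 22 bases with other microRNA genes, and reads that fit several places are not in these counts. Mir490, in the muscarinic receptor gene Chrm2, had 649 and 382 CPM, a log2 ratio of 0.80 (0.71 to 0.89).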
